A study of Mus musculus with 8 samples.

Results

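The cells described here are mesodermal cells of E8.5 chimeric mouse embryos that carried transcripts of Foxf1, Osr1 and Aldh1a2 together, a combination that marks splanchnic lateral plate mesoderm. A kept cell had at least 1500 unique molecular identifiers (UMIs), at most 30% mitochondrial UMIs and at most 35% UMIs of genes named Rps or Rpl. Membership required at least 1 UMI of each of Foxf1, Osr1 and Aldh1a2 and 0 UMIs of Tbx4, an allantois and limb gene, and of Epcam, an epithelial gene. The rule found 719 of the 37186 kept cells of the 6 E8.5 libraries, out of 49838 kept cells in all 8 libraries of the series. Tet-TKO libraries 1 to 4 contributed 206, 116, 125 and 74 of them, and the WT host pair 119 and 79.

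The study asked what cells without the TET enzymes become in an otherwise normal embryo. Embryonic stem cells lacking Tet1, Tet2 and Tet3 (Tet-TKO), of a C57BL/6J-129Sv background and carrying an H2B-tdTomato reporter driven by the CAG promoter, were injected into wild-type C57BL/6J blastocysts. Embryos were pooled, dissociated and sorted into tdTomato-positive cells, which are the Tet-TKO cells, and tdTomato-negative cells, which are the wild-type host cells (WT host), and 10x Genomics 3′ libraries were made of each. All Tet-TKO cells descend from 1 knockout line, the host cells have another strain background, and the WT host cells were neither grown as stem cells nor injected, so genotype, strain and injection cannot be told apart in any comparison between the sorted fractions. The libraries are the replicates, and because the pools behind them are not described further, p-values measure only the spread between these libraries.

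The lateral plate is the mesoderm beside the intermediate mesoderm, and it splits into a somatic layer facing the ectoderm and a splanchnic layer facing the gut. The splanchnic layer gives rise to the smooth muscle and connective tissue of the gut and to the mesothelium, and at its anterior end it adjoins the progenitors of the second heart field. FOXF1 is a forkhead factor that responds to Hedgehog protein from the gut endoderm, OSR1 is a zinc finger factor of lateral and intermediate mesoderm, and ALDH1A2 makes retinoic acid. TET enzymes oxidise 5-methylcytosine, which leads to its removal from DNA.

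The 6 E8.5 libraries held 65601218 to 136982886 UMIs. Depth per cell was uneven, with medians of 18774, 12178, 40404 and 68931 UMIs in the kept cells of Tet-TKO libraries 1 to 4 against 15231 and 13663.5 for WT host. Within the 719 cells the medians were 21353.5, 14554, 42930 and 76161.5 UMIs for Tet-TKO and 16643 and 14382 UMIs for WT host, so Tet-TKO libraries 3 and 4 stood apart from the other 4. Between 0 and 26 kept barcodes were shared by any pair of E8.5 libraries, at most 0.435% of the smaller library. tdTomato UMIs were found in 64.6%, 58.6%, 88.8% and 95.9% of the Tet-TKO cells meeting the rule, and in 0% and 1.27% of those of the WT host. Tet1 stood at 9.26, 8.56, 22.3 and 18.9 CPM (the count of a gene scaled to the total UMIs of the cells summed) in the Tet-TKO libraries and at 26 and 22.5 CPM in the WT host. Tet2 and Tet3 overlapped between the genotypes, but the counts are 3′ tags, which can lie outside the deleted part of a gene, and so they do not check the knockout. Xist, the RNA that silences one X chromosome in female cells, was at 0.173 to 5.13 CPM in Tet-TKO cells and at 360 and 322 CPM in WT host cells. Xist thus differed between the sorted fractions. The sex of the Tet-TKO line and of the host embryos is not stated, so sex and genotype cannot be told apart either.

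Since the rule used Foxf1, Osr1 and Aldh1a2, their levels are a description only, given over the summed UMIs of the cells of each library. Foxf1 stood at 209, 217, 184 and 177 CPM in the Tet-TKO libraries and at 271 and 289 CPM in the WT host, against 43.9 to 124 CPM in all other kept cells. For Osr1 the values were 83.3, 131, 81.8 and 69.6 CPM in Tet-TKO cells and 129 and 158 CPM in WT host cells, against 6.06 to 9.26 CPM elsewhere. Aldh1a2 was between 180 and 242 CPM in the cells of the rule and between 18.1 and 29.1 CPM elsewhere. Many members sat at the edge of the rule. Of the 979 cells with all 3 transcripts, 174 held a Tbx4 UMI and 135 an Epcam UMI and were set aside. Of the 719 kept by the rule, 429 had just 1 UMI of whichever of the 3 transcripts was lowest in that cell. Just outside the rule were 971 cells with Foxf1 and Aldh1a2 but no Osr1, 845 with Foxf1 and Osr1 but no Aldh1a2, and 261 with Osr1 and Aldh1a2 but no Foxf1. At E7.5 the same rule found 16 of 5510 Tet-TKO cells (0.290%) and 23 of 7142 WT host cells (0.322%), which were not analysed further.

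Genes with at least 20 CPM in every library were ranked by the ratio of their level in the cells of the rule to that in all other kept cells. Lhx1, a LIM homeodomain factor, led the order at 70.5 to 99.8 CPM in the cells of the rule against 4.84 to 16.9 CPM elsewhere, a median log2 ratio of 2.76 (pseudocount 1 CPM). Arg1, the arginase that splits arginine into ornithine and urea, followed at 44.1 to 245 CPM against 6.32 to 27.6 CPM, a median log2 ratio of 2.74. Arg1 is not particular to these cells. In cells with Meox1 and Tcf15, compared further below, it was higher in each library, at 79.3 to 336 CPM. Alx1, a paired-type homeodomain factor of mesenchyme and 1 of the 5 splanchnic markers, was at 34.6 to 65.9 CPM against 5.01 to 6.08 CPM. Nr2f1, an orphan nuclear receptor and another of the markers, was at 28.8 to 165 CPM against 9.56 to 49.3 CPM. Both markers outside the rule were thus above the other kept cells in all 6 libraries, and Lhx1 is also known from the neighbouring intermediate mesoderm.

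Next in this order came genes of different kinds, with median log2 ratios between 2.25 and 1.22. The Hox cofactor Meis1 (2.04), the homeodomain factor Zfhx4 (1.57), the nuclear receptor Nr2f2 (1.71) and the forkhead factors Foxc2 (1.61) and Foxc1 (1.22) were among them. Rdh10, which makes the retinaldehyde that ALDH1A2 uses, had a ratio of 1.73, and the Slit receptor Robo2 one of 1.83. Dach1, a transcriptional cofactor, was at 37.5 to 65.9 CPM in the cells of the rule and at 5.56 to 12.7 CPM elsewhere. Hoxa5 (1.52) and Hoxa2 (1.31) were among the Hox genes in this order. The remaining ratios drawn were those of the noncoding RNAs Abhd11os (1.49) and Hotairm1 (1.36), of Nhs (1.28), of the secreted kinase gene Pkdcc (1.26) and of the kinase gene Rps6ka3 (1.25). Because these cells were picked by their transcripts, the ratios describe the selection and carry no test.

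**Figure D1:**
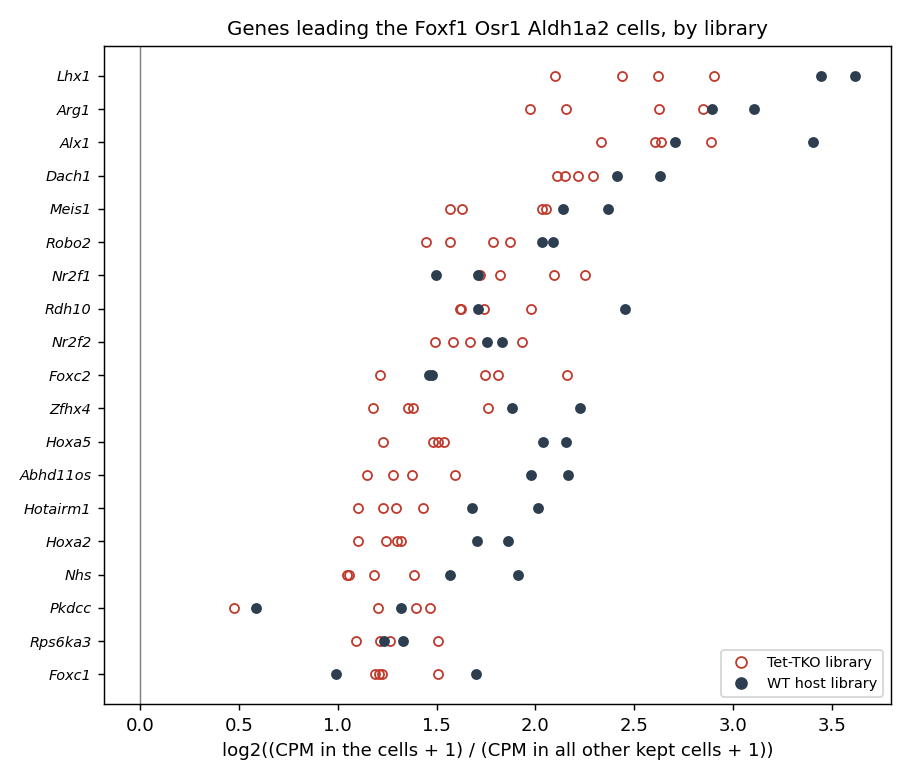
The horizontal axis is log2 of CPM in the Foxf1 Osr1 Aldh1a2 cells over CPM in all other kept cells of the same library (pseudocount 1 CPM), for 19 of the 20 leading genes, with 1 open point per Tet-TKO library and 1 filled point per WT host library. Lhx1, with a median of 2.76, has the largest ratio in this order, and the 19 genes drawn lie above 0 in all 6 libraries.

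Against the other kept cells, the Hox genes of these cells leaned to the anterior part of the Hox code. Summed over the genes of paralog group 2, the cells held 118 to 164 CPM per library, against 42.9 to 91.2 CPM in other kept cells. Group 5 summed to 46.5 to 89.3 CPM against 15.7 to 37.5 CPM. Group 9 summed to 40.8 to 72.1 CPM in the cells of the rule against 78.9 to 175 CPM elsewhere, and groups 10 to 13 to no more than 8.52 CPM in any library. Some genes of groups 10 to 13 are in the allantois list, and the rule set aside cells with Tbx4, so their low level is in part built in. On the mean over libraries, groups 2 to 5 were higher and groups 6 to 13 lower than in other kept cells. That mean holds more Tet-TKO than WT host libraries. Group 6 summed to 15.4 to 26.2 CPM in Tet-TKO and to 48.8 and 30.2 CPM in WT host cells of the rule, against 27.2 to 57.7 CPM elsewhere. In thinned cells the standing of Hoxb6 and Hoxb9 against the other kept cells differed between the genotypes. Hoxb6 was in 5.41% to 11.3% of Tet-TKO cells of the rule against 9.94% to 16.7% elsewhere. In the WT host it was in 19.3% and 12.7% against 9.83% and 6.95%. Hoxb9 was in 6.34% to 8.11% against 11.6% to 16.3% in Tet-TKO libraries. In the WT host it was in 12.6% and 15.2% against 8.21% and 8.38%. Both were below the other kept cells in each Tet-TKO library and above them in each WT host library. The other kept cells differed as well, with both genes more frequent there in every Tet-TKO library than in the WT host. The change of order thus rests on both sets of cells.

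Within the cells, no marker outside the rule was present in all of them. With every cell thinned to 5000 UMIs, Hand2, a bHLH factor of lateral plate and heart, was detected in 26.9% to 35.1% of the cells per library, against 7.38% to 22.5% of other kept cells. Gata6, a zinc finger factor of splanchnic mesoderm and endoderm, was in 33.9% to 46.3% against 11.3% to 24.4%. Not every lateral plate gene was more frequent than elsewhere. Hand1, the partner of Hand2 in lateral plate and heart, was in 18.5%, 11.3%, 4.0% and 4.05% of thinned Tet-TKO cells of the rule against 35.7%, 30.6%, 20.4% and 21.3% of other kept cells, and in 29.4% and 17.7% against 19.1% and 14.2% in the WT host. Bmp4, a ligand of lateral and extraembryonic mesoderm, was likewise in 18.0%, 19.1%, 20% and 13.5% against 30.1%, 27.1%, 22.6% and 22.2% in Tet-TKO libraries, and in 25.2% and 18.99% against 15.4% and 12.1% in the WT host. Both were thus below the other kept cells in each Tet-TKO library and above them in each WT host library. In the cells of the rule both genes overlapped between the genotypes. In the other kept cells both were more frequent in every Tet-TKO library than in the WT host. Alx1 was in 15.1% to 32.9% against 2.32% to 2.87%, and Lhx1 in 18.4% to 33.9% against 1.85% to 6.15%. Without thinning, Alx1 was detected in 33.6% to 74.3% of the cells and Lhx1 in 49.4% to 82.4%, the higher values coming with the deeper libraries. Some markers of later or other mesoderm were rare, with Tbx18 in 0% to 2.53% of thinned cells against 0.435% to 1.54% elsewhere and Pax2 in 0% to 0.976% against 1.77% to 2.96%. Meox1, a paraxial mesoderm gene, was more frequent than elsewhere in all 6 libraries, in 5.37%, 4.35%, 6.40%, 10.8%, 11.8% and 16.5% of thinned cells against 1.72% to 4.58%. Its partner in the somite, Tcf15, was in 4.80% to 13.7% against 3.63% to 4.91%. With all UMIs counted, 17, 5, 9, 9, 10 and 9 cells of the rule held both genes.

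Nr2f1 and Cdx2 were set side by side in single cells, a pair chosen after its values were seen and not tested. In thinned cells of Tet-TKO libraries 1 to 4, Nr2f1 was found in 4.26%, 10.0%, 0% and 0% of the cells with a UMI of Cdx2, a posterior homeodomain factor, and in 24.1%, 35.8%, 49.2% and 52.2% of those without. The shares in the WT host libraries were 5.41% and 0% of Cdx2-positive cells and 14.6% and 34.3% of Cdx2-negative cells. The Cdx2-positive cells numbered 47, 20, 5, 5, 37 and 9, so a share of 0% among 5 cells is weak, yet the order was the same in all 6 libraries. Of the other pairs of genes looked at in this way, Nr2f1 with Hoxb6 kept 1 order in all 6 libraries and the rest, such as Hand2 with Lhx1 and Alx1 with Lhx1, went either way. Libraries differed in how many cells held either gene. Over the 6 libraries Nr2f1 was in 11.8% to 48.6% of thinned cells, and Cdx2 was in 22.9%, 17.4%, 4% and 6.76% of thinned Tet-TKO cells and in 31.1% and 11.4% of those of the WT host. These ranges ran across both genotypes and are a description over cells of a few pools.

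A larger share of cells met the rule in most Tet-TKO libraries than in the WT host, but the difference shrank once depth was equal. The share was 2.93%, 1.22%, 5.44% and 7.34% of kept cells for the 4 Tet-TKO libraries in order, against 1.44% and 0.874% for the WT host, with exact 95% binomial intervals of 2.55% to 3.35%, 1.01% to 1.46%, 4.55% to 6.44%, 5.81% to 9.13%, 1.20% to 1.72% and 0.693% to 1.09% that cover counting error only. The means were 4.23% ± 2.70 (SD, n = 4) and 1.16% ± 0.401 (SD, n = 2), a difference of 1.62 between the mean log2 shares (exact permutation test over libraries, two-sided, p = 0.2, where 15 splits allow no p below 0.133). In this comparison 3 of 4 Tet-TKO libraries lay above both WT host libraries and library 2 lay between them, so the groups overlapped. Libraries 3 and 4, with the highest shares, were also the deepest.

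After each kept cell was thinned to 5000 UMIs and the rule applied again, the shares were 0.385%, 0.266%, 0.540% and 0.871% in the Tet-TKO libraries and 0.376% and 0.301% in the WT host, resting on 26, 24, 12, 8, 29 and 25 cells. Thinning left out 281, 516, 76 and 89 shallower Tet-TKO cells and 552 and 724 WT host cells. The means were 0.515% ± 0.262 (SD, n = 4) and 0.338% ± 0.0535 (SD, n = 2), a difference of 0.48 between the mean log2 shares (exact permutation test, two-sided, p = 0.467). With a library left out this difference ran from 0.18 to 0.75. The share also depends on the other cells counted. Without cells of at least 5% haemoglobin UMIs the thinned shares were 0.385%, 0.268%, 0.545% and 0.876% against 0.435% and 0.403%. Tet-TKO libraries 1 and 2 then lay below both WT host libraries. At 10000 UMIs the shares were 1.62%, 1.01%, 2.12% and 2.17% against 1.05% and 0.738%, a difference of 0.91 between the mean log2 shares (exact permutation test, two-sided, p = 0.2). With Tet-TKO libraries 1 and 2 alone against the WT host, a choice made after seeing the data, the difference at 5000 UMIs was -0.0731, so its direction rested on libraries 3 and 4. By a rule on transcripts, fewer cells of this kind and less RNA of a rule gene per cell cannot be told apart.

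**Figure D2:**
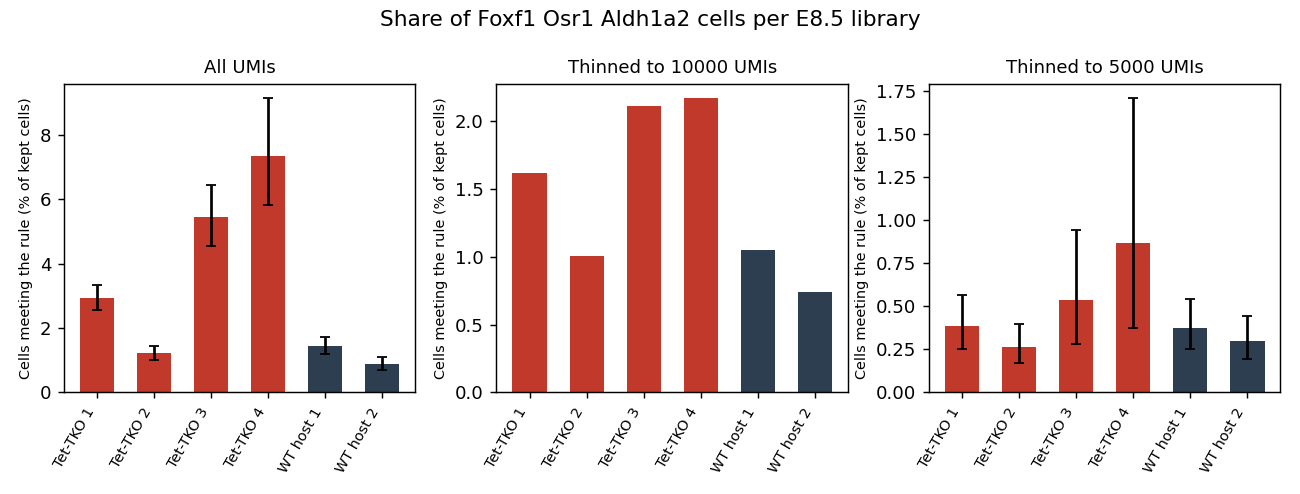
Bars give the percent of kept cells meeting the rule in each E8.5 library, with all UMIs, thinned to 10000 UMIs and thinned to 5000 UMIs, on 3 separate linear axes starting at 0, and whiskers (all UMIs and 5000 UMIs) are exact 95% binomial intervals. Tet-TKO libraries 3 and 4 are at 5.44% and 7.34% with all UMIs and at 0.540% and 0.871% when thinned to 5000 UMIs, where their intervals overlap those of the other libraries.

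The genotypes were compared gene by gene over the libraries. The rule admits a cell on 1 UMI of each gene, so depth also affects which cells entered these tests and the list medians below. In Tet-TKO libraries 3 and 4, the deepest, its part cannot be told apart from that of genotype. With the rule on thinned counts, which left fewer cells, 26 of the genes called below could be tested and 13 kept the call. Of 10862 genes tested on summed UMIs with edgeR's quasi-likelihood test, 38 (0.350%) were called at an adjusted p below 0.01 and an absolute log2 fold change of at least 1, 18 higher (0.166%) and 20 lower (0.184%) in Tet-TKO cells. All 38 had every Tet-TKO library outside the WT host range, which calls at these thresholds favour. For 4 and 2 libraries an exact permutation test gives no p below 0.133, even without overlap. The share of all genes tested without overlap is not given, so non-overlap is a description here and below. Of the 18 that rose, 9 were processed pseudogenes and 1 was the tdTomato reporter. Without the reporter, Xist, the haemoglobins and the genes that are not protein coding, a choice made after seeing the data, 21 genes remained, 7 higher and 14 lower. The count rested on the pair of WT host libraries, since 3 genes were called without WT host library 1 and 7 without library 2, and Tet-TKO libraries 1 and 2 alone gave 96 calls while libraries 3 and 4 alone gave 501.

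**Figure D3:**
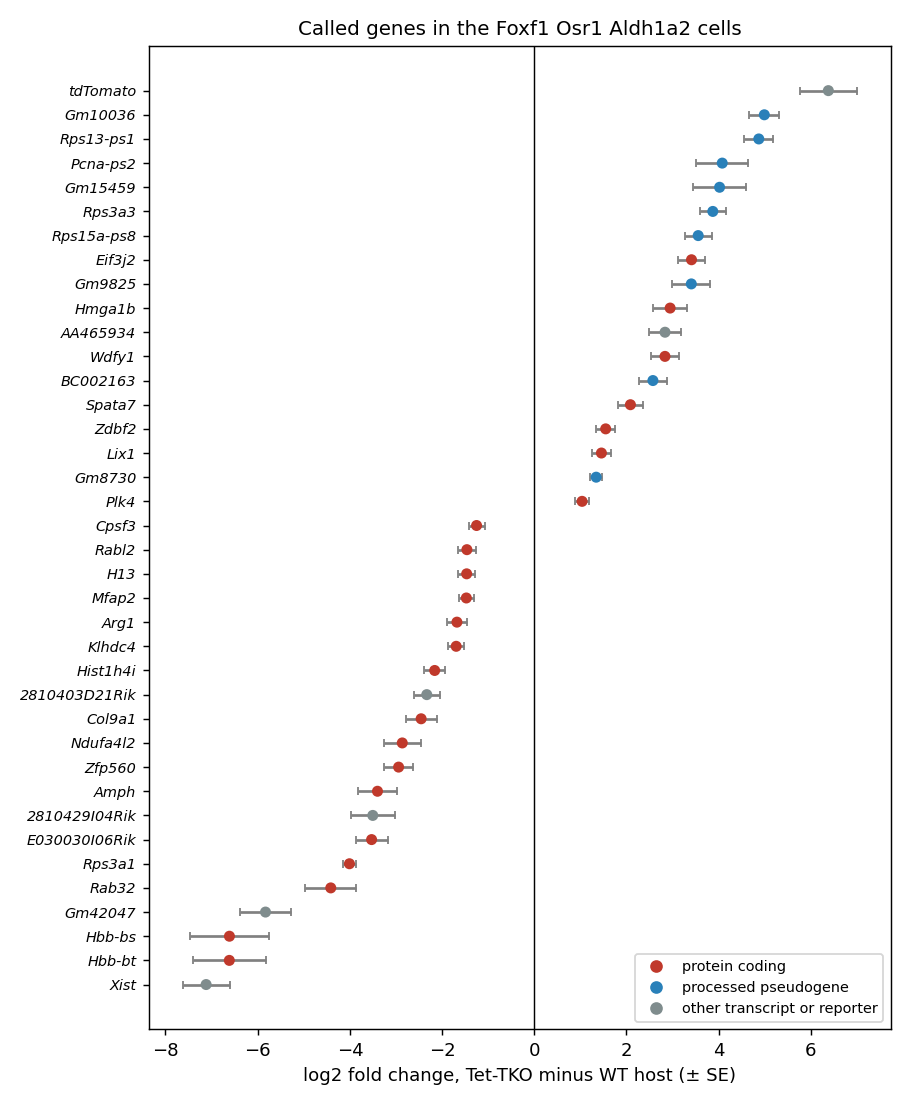
Points give the log2 fold change of the 38 called genes, Tet-TKO minus WT host, with bars of 1 standard error from edgeR, coloured by transcript type. Of the 18 genes to the right of 0, 9 are processed pseudogenes, and the lowest values belong to Xist, the haemoglobins Hbb-bt and Hbb-bs and the RNA Gm42047 (-5.83).

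Most of the genes that rose furthest were copies of other genes, where the counting may have split reads between near-identical sequences. The ribosomal protein gene Rps3a1 stood at 244, 293, 353 and 265 CPM in the Tet-TKO libraries and at 4642 and 4486 CPM in the WT host (log2 fold change -4.01, SE 0.146, edgeR adjusted p = 1.19e-06). Its processed copy Rps3a3 showed the mirror image, at 4617, 4282, 3852 and 3932 CPM against 369 and 191 CPM (log2 fold change 3.87, SE 0.288, edgeR adjusted p = 0.000297). Their sum was 4862, 4575, 4205 and 4197 CPM in Tet-TKO cells and 5011 and 4677 CPM in WT host cells, so the groups overlapped once the pair was added up. The strain backgrounds differ, and whether reads of a strain variant were assigned to the copy was not tested.

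The other copies that rose were Gm10036 (log2 fold change 4.99), Rps13-ps1 (4.87), Pcna-ps2 (4.08), Gm15459 (4.02), Rps15a-ps8 (3.56), Gm9825 (3.41), BC002163 (2.57) and, outside the naming rule and chosen after its values were seen, Gm8730 (1.34). Their edgeR adjusted p ran from 0.000124 to 0.00995. Over the WT host libraries, Pcna-ps2 had 2 UMIs, Gm10036 4, Gm15459 7 and Gm9825 9, so the size of these fold changes depends on the prior count. Pcna-ps2 ran from 3.42 to 8.34 over 17 alternative settings and kept its call in 9. Eif3j2, a further gene for a translation initiation factor subunit, was at 39.6, 48.5, 51.3 and 61.4 CPM in Tet-TKO cells and 5.58 and 3.1 CPM in WT host cells (3.41), and Hmga1b, a copy of the chromatin protein gene Hmga1, was at 25.8 to 42.8 CPM against 3.72 and 5.42 CPM (2.95). For all of these the source of the reads is uncertain.

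Among the genes that rose and are not annotated as copies, Wdfy1, an endosomal adaptor, rose from 6.51 and 2.32 CPM in the WT host to 35.5, 32.5, 36.2 and 36.7 CPM in Tet-TKO cells (log2 fold change 2.83, SE 0.308, edgeR adjusted p = 0.00263). AA465934, a processed transcript of unknown function, was at 25.7 to 50.5 CPM against 5.58 and 4.65 CPM (2.84). The following were chosen after their values were seen. Spata7, a photoreceptor cilium gene, was at 118, 90.7, 71.8 and 101 CPM against 21.4 and 23.2 CPM (2.09, edgeR adjusted p = 0.00618). Lix1, a limb expression gene, was at 50.4, 47.4, 69.1 and 55.5 CPM against 18.6 and 21.7 CPM (1.46, SE 0.200, edgeR adjusted p = 0.00921). Plk4, the kinase that starts centriole duplication, was at 118, 122, 128 and 153 CPM against 64.2 and 60.4 CPM (1.04, edgeR adjusted p = 0.00995). Plk4 lay close to the threshold on fold change and kept its call in 5 of 19 alternative settings. These settings include a looser threshold on the same fit, which can lose no call. In each of these genes the lowest Tet-TKO library was above the highest WT host library.

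Arg1, among the leading genes of these cells against all other kept cells, fell. It stood at 44.1, 64.5, 73.9 and 83.0 CPM in the Tet-TKO libraries and at 173 and 245 CPM in the WT host, with no overlap (log2 fold change -1.68, SE 0.208, edgeR adjusted p = 0.00530). The gene was named after its values were seen, and its call was kept in 14 of the same 19 alternative settings, with log2 fold changes from -1.94 to -1.40. The edgeR adjusted p of Arg1 was 0.0120 when Tet-TKO library 2 was left out, and 0.0468 and 0.148 when either of the WT host pair was. Arg1 lies at chr10:24915221-24927484 (GRCm38, minus strand). Mfap2, a microfibril glycoprotein, was at 21.5, 22.8, 23.2 and 26.5 CPM against 57.2 and 72.0 CPM (-1.47, SE 0.166, edgeR adjusted p = 0.00329), and Col9a1, a collagen chain of cartilage, was at 7.10, 1.71, 5.48 and 5.02 CPM against 27.0 and 29.4 CPM (-2.45, SE 0.336, edgeR adjusted p = 0.00921).

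Further genes that fell ranged from noncoding RNAs to an mRNA cleavage factor. Gm42047, an RNA that lies 3677 bases from Klhdc4 on chromosome 8, was at 0, 0, 1.24 and 0.346 CPM in Tet-TKO cells and 33.0 and 24.8 CPM in WT host cells (log2 fold change -5.83), and its neighbour Klhdc4, a kelch domain gene named after its values were seen, was at 15.1 to 19 CPM against 46.5 and 59.7 CPM (-1.69). Rab32, a small GTPase of organelle traffic, was at 0.173 to 0.646 CPM against 9.30 and 8.52 CPM (-4.41), and Amph, an endocytosis protein, at 0.571 to 1.38 CPM against 9.30 and 17.0 CPM (-3.40). Gm42047, Rab32 and Amph were all close to no detection in Tet-TKO cells, where a fold change depends on the prior count. Further down the order were E030030I06Rik (-3.53), 2810429I04Rik (-3.50), the zinc finger gene Zfp560 (-2.94), Ndufa4l2, which is related to a mitochondrial respiratory subunit (-2.86), and 2810403D21Rik, which is on the X chromosome (-2.33). Named after their values were seen, the histone gene Hist1h4i (-2.16), the signal peptide peptidase H13 (-1.47), Rabl2 (-1.46) and the mRNA cleavage factor Cpsf3 (-1.25) complete the 20 together with Xist and the haemoglobins.

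Of the haemoglobins, Hbb-bt was at 0.215, 0, 0 and 0 CPM in Tet-TKO cells and 6.98 and 10.8 CPM in WT host cells, and Hbb-bs was at 0 to 0.571 CPM against 6.51 and 23.2 CPM (both -6.61, edgeR adjusted p = 0.00493 and 0.00618). All Tet-TKO cells of the rule held 1 UMI of Hbb-bt and 2 of Hbb-bs, so the size of these fold changes depends on the prior count. The blood list as a whole was lower in the Tet-TKO cells. Its 11 genes summed to 13.1, 259, 385 and 6.75 CPM in the Tet-TKO libraries and to 2011 and 7983 CPM in the WT host, and in all other kept cells of the same libraries they summed to 639 to 1786 CPM and to 20080 and 48821 CPM. Of the 9 tested, 2 were called and 8 had an unadjusted p below 0.05, all lower, with a median log2 fold change of -5.59 against 0.01 over all genes tested. Of all genes tested, 0.350% were called and 9.75% had an unadjusted p below 0.05. The calls in this list were 0 without either WT host library, 1 without Tet-TKO library 1 or 3, and 3 without library 2. Hba-x was detected in 2.44%, 7.83%, 7.20% and 0% of thinned Tet-TKO cells of the rule and in 72.3% and 96.2% of those of the WT host, against 3.31% to 11.1% and 78.2% and 95.9% of other kept cells of the same libraries.

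Calls were rare among all genes tested (0.350%), so a short list without a call says little about its genes. Over all genes tested, 1059 (9.75%) had an unadjusted p below 0.05, 544 of them (5.01%) higher. In the list of lateral plate and splanchnic mesoderm, edgeR called 0 of the 29 genes tested besides those of the rule, 4 had an unadjusted p below 0.05 (2 higher and 2 lower), and the median log2 fold change was 0.11, which ran with a library left out from 0.09 (Tet-TKO 1) to 0.19 (WT host 2) and exceeded 0.16 without Tet-TKO 3 or 4 as well. Among the most abundant members of the list were Meis2, a Hox cofactor (235, 258, 343 and 399 CPM in Tet-TKO, 218 and 268 CPM in WT host) and Twist1, a bHLH factor of mesenchyme (221 to 256 CPM against 233 and 196 CPM), and both overlapped between genotypes. Hand2 was at 94.5, 82.7, 89.8 and 89.8 CPM in Tet-TKO cells and at 77.7 and 60.4 CPM in WT host cells (log2 fold change 0.34, edgeR adjusted p = 0.534). Alx1 and Nr2f1 overlapped between the genotypes (log2 fold changes -0.36 and 0.97), as did Hand1 (-1.09) and Gata6 (0.23), Nr2f1 ranging from 51.5 to 165 CPM in Tet-TKO and from 28.8 to 91.4 CPM in WT host libraries.

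Gata5, a zinc finger factor of heart and gut mesoderm, came closest in that list. It was at 9.47, 6.28, 9.72 and 9.69 CPM in the Tet-TKO libraries and at 21.9 and 26.3 CPM in the WT host, with no overlap (log2 fold change -1.43, SE 0.236, edgeR adjusted p = 0.0242), which missed the threshold in edgeR and passed it in DESeq2. In cells with Tbx4 and Foxf1, a neighbouring mesoderm, Gata5 stood at 24.6 to 34.9 CPM in Tet-TKO and 51.9 and 62.3 CPM in WT host libraries. Gata5 was chosen after its values were seen.

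In the posterior second heart field list, 0 of 16 genes were called by edgeR, 4 had an unadjusted p below 0.05 (2 higher and 2 lower) and the median log2 fold change was -0.16. That median was -0.28 without Tet-TKO library 1, -0.03 and -0.09 without libraries 3 and 4, and -0.07 without WT host library 1. Among its most abundant genes, Nr2f2 and Hoxb1 overlapped between the genotypes (0.45 and -0.36). Fgf8, a growth factor of the heart field and tail bud, was at 95.4, 67.9, 43.7 and 60.7 CPM in Tet-TKO cells and 27.4 and 24.8 CPM in WT host cells (log2 fold change 1.34, edgeR adjusted p = 0.197). Wnt2, a ligand of the cardiac inflow, was at 36.2, 28.5, 38.89 and 27.0 CPM against 52.6 and 59.7 CPM (-0.79, edgeR adjusted p = 0.171). Neither overlapped between genotypes, and DESeq2 called Fgf8 and not Wnt2. In the list of somatic lateral plate and limb field, 0 of 10 were called, 2 had an unadjusted p below 0.05, both lower (Tbx5 and Irx3), and the median was -0.37. Its most abundant genes were Prrx2 (0.15), Msx1 (-0.58) and Irx3 (-0.35), homeodomain factors of limb and body wall mesenchyme, and Tbx5, the forelimb and heart T-box factor, was at 3.29 to 9.90 CPM against 13 and 15.5 CPM.

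**Figure D4:**
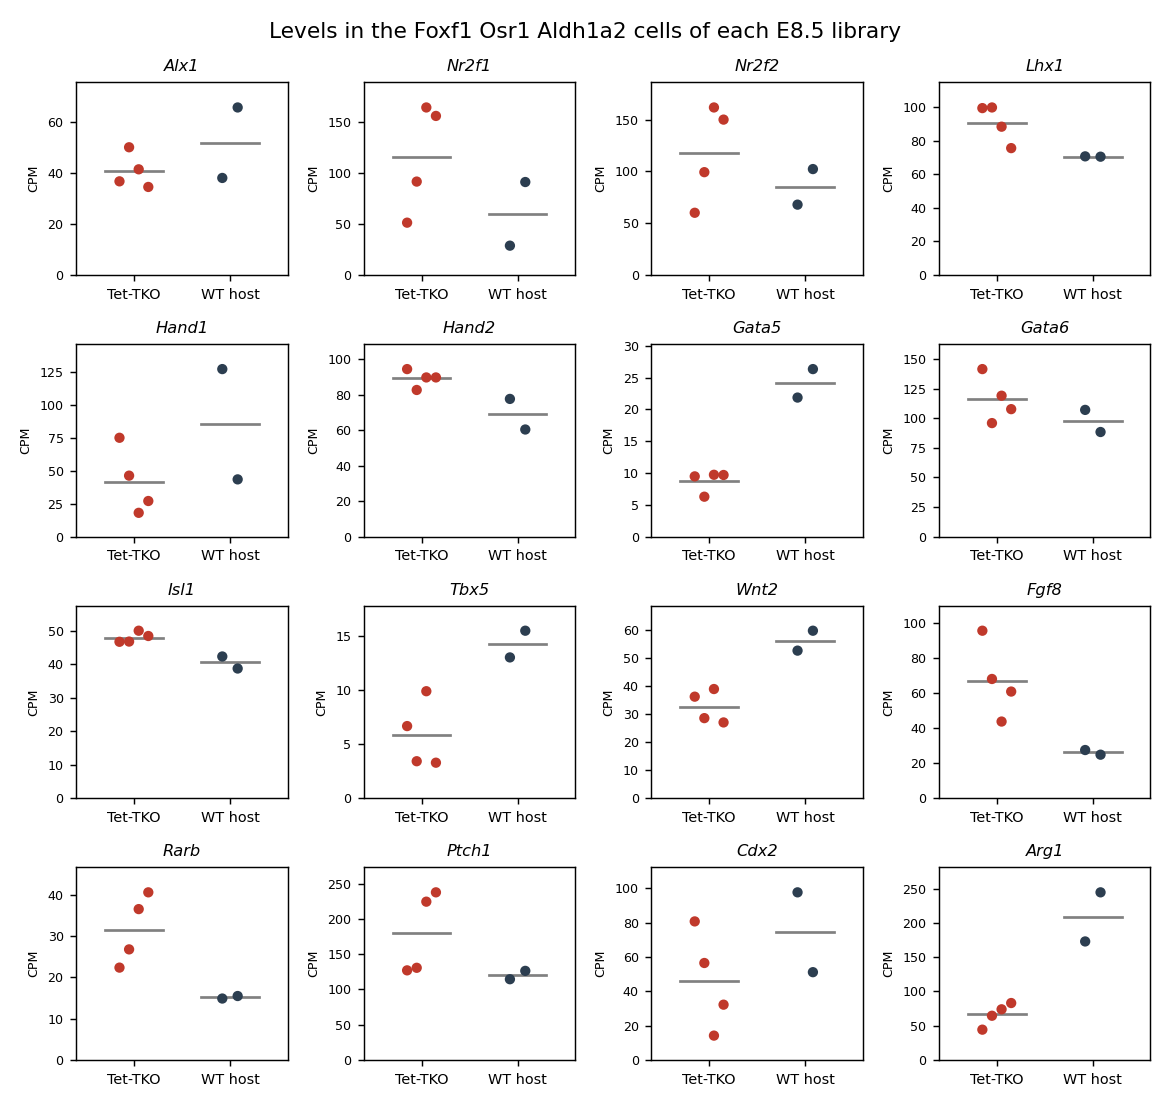
Each panel gives the CPM of 1 gene over the summed UMIs of the Foxf1 Osr1 Aldh1a2 cells, with 1 point per E8.5 library and a line at the group mean, on linear axes starting at 0. Arg1 (44.1 to 83.0 CPM against 173 and 245 CPM) and Gata5 (6.28 to 9.72 CPM against 21.9 and 26.3 CPM) do not overlap between the 4 Tet-TKO and the 2 WT host libraries, while Alx1, Nr2f1, Hand1 and Cdx2 do.

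Retinoic acid genes were split. Of 16 tested besides Aldh1a2, edgeR and DESeq2 called 0, 4 had an unadjusted p below 0.05 (2 higher and 2 lower) and the median log2 fold change was -0.00, between -0.15 (without Tet-TKO library 3) and 0.04 (without library 2) with a library left out. Carriers of retinoids were among the most abundant, with Crabp1 at 465, 380, 219 and 155 CPM in Tet-TKO and 576 and 388 CPM in WT host cells and Crabp2 at 71.5 to 182 CPM against 59.1 and 82.1 CPM, both overlapping. Rarb, a retinoic acid receptor whose gene is itself induced by retinoic acid, was at 22.4, 26.8, 36.6 and 40.7 CPM against 14.9 and 15.5 CPM (1.04, SE 0.263, edgeR adjusted p = 0.172). Stra6, a retinol transporter, was at 9.70 to 13.1 CPM against 17.2 and 23.2 CPM (-0.82, edgeR adjusted p = 0.247). Rarb and Stra6 did not overlap between the genotypes and were chosen after their values were seen.

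Hedgehog genes leaned one way without a call. All 11 genes tested had a positive log2 fold change, with a median of 0.55 against 0.01 over all genes tested, 0 were called by edgeR or DESeq2 and 3 had an unadjusted p below 0.05. Ptch1, the Hedgehog receptor and a target of the pathway, was at 127, 131, 224 and 238 CPM in Tet-TKO cells and at 114 and 126 CPM in WT host cells (0.55, SE 0.237, edgeR adjusted p = 0.495). The co-receptor Gas1 (64.6, 83.3, 97.4 and 105 CPM against 70.7 and 66.6 CPM) overlapped, and the signal transducer Smo (63.3, 65.0, 79.0 and 79.1 CPM against 54.9 and 57.3 CPM) did not. Much of the lean came from Tet-TKO libraries 3 and 4, since with libraries 1 and 2 alone against the WT host 5 of 7 genes tested were higher and the median was 0.11, and leaving out library 3 or 4 gave medians of 0.32 and 0.31 over 7 genes. In all other kept cells the list summed to 255, 264, 397 and 403 CPM in Tet-TKO and to 212 and 222 CPM in WT host libraries, so the lean was there too. The ligands Shh, Ihh and Dhh were at 0 to 0.861 CPM in these cells and were not tested.

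The BMP, Wnt and FGF lists had no call by edgeR. For BMP, 0 of 22 genes were called by edgeR or DESeq2, 3 had an unadjusted p below 0.05 (2 higher and 1 lower) and the median log2 fold change was 0.10, with the target genes Id3 (0.28), Id2 (-0.36) and Id1 (0.33) the most abundant. The BMP median turned to -0.03 without Tet-TKO library 1 and was 0.18 without library 2 and 0.17 without WT host library 1. For Wnt, 0 of 23 were called by either tool, 5 had an unadjusted p below 0.05 (1 higher and 4 lower) and the median was -0.12, with the receptor Fzd2 (0.33), the secreted inhibitor Sfrp1 (0.50) and the effector Lef1 (-0.42) the most abundant. The Wnt median was -0.58 without Tet-TKO library 1, between -0.29 and -0.20 without Tet-TKO library 2, 3 or 4 or WT host library 1, and 0.05 without WT host library 2. Nkd1 and Notum, negative feedback genes of the Wnt pathway chosen after their values were seen, did not overlap between the genotypes, Nkd1 at 45.0, 37.7, 24.0 and 25.8 CPM against 79.1 and 54.2 CPM and Notum at 0.884 to 2.58 CPM against 11.2 and 5.42 CPM (edgeR adjusted p = 0.269 and 0.136). For FGF, 0 of 19 were called by edgeR, 3 had an unadjusted p below 0.05, all higher, and the median was -0.03, with Fgf8, the receptor Fgfr1 (0.43) and the inhibitor Spred1 (0.07) the most abundant. The FGF median changed sign with the library left out, from -0.20 without WT host library 2 to 0.30 without WT host library 1.

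In the Hox list 0 of 27 genes were called by edgeR or DESeq2, 3 had an unadjusted p below 0.05 (1 higher and 2 lower) and the median log2 fold change was -0.17, which was -0.29 and 0.09 without WT host library 1 and 2. Hoxb2 (0.27) and Hoxb1 (-0.36), among the most abundant, are anterior genes, and Hoxb2 did not overlap while Hoxb1 did (Hoxb2 112, 111, 126 and 135 CPM against 96.8 and 101 CPM). Hoxa5, chosen after its values were seen, was at 41.8, 58.8, 66.6 and 71.6 CPM against 33.5 and 38.0 CPM (0.72, edgeR adjusted p = 0.283), and Hoxb8 at 22.1 to 32.3 CPM against 45.6 and 41.1 CPM (-0.71, edgeR adjusted p = 0.300). For matrix and adhesion, 0 of 28 were called by either tool, 1 had an unadjusted p below 0.05 (Col5a2, lower) and the median was 0.32, and the abundant Vim (-0.23), Fn1 (-0.01) and Vcan (0.56) overlapped between the genotypes. Genes of the cell cycle had 0 calls by either tool and 0 unadjusted p below 0.05, which 9.75% of all genes tested had. These were 15 S phase genes (median -0.01, Rrm2, Pcna and Slbp at 0.03, 0.11 and -0.10) and 18 G2/M phase genes (median -0.06, Ube2c, Birc5 and Top2a at -0.22, -0.07 and -0.04). With a library left out the S phase median stayed between -0.04 and 0.04 and the G2/M phase median between -0.11 (Tet-TKO 1) and 0.04 (Tet-TKO 4).

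The DNA methylation list, which holds the writers, readers and erasers of 5-methylcytosine, had 0 calls by either tool among 15 genes, 1 unadjusted p below 0.05 and a median log2 fold change of 0.02, which was between -0.01 (without Tet-TKO library 2) and 0.14 (without WT host library 2). The abundant Mbd3 (-0.11), Uhrf1 (-0.20) and Dnmt1 (0.02) overlapped between the genotypes. Tdg, the glycosylase that removes the bases TET enzymes produce, was at 40.3, 49.1, 57.1 and 63.0 CPM in Tet-TKO cells and at 80.9 and 87.5 CPM in WT host cells, without overlap (-0.71, SE 0.167, edgeR adjusted p = 0.133), and was chosen after its values were seen. Pluripotency and germline genes were low throughout. Of 22 genes, 4 could be tested, 0 were called by either tool, 1 had an unadjusted p below 0.05 (Dppa5a, 1.73 to 5.13 CPM against 0.465 and 0 CPM) and the median was 0.94, with Pou5f1 (-0.66), Rhox5 (-0.74) and Dppa4 (2.53) the most abundant at no more than 14.9 CPM. That median rests on few genes and was -1.31 without Tet-TKO library 1, when 1 gene could be tested, and -0.62 without Tet-TKO library 2, when 2 could.

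Imprinted genes, which are expressed from the maternal or the paternal copy alone under the control of methylation marks inherited from the gametes, leaned towards Tet-TKO. Of 32 tested, 25 had a positive log2 fold change, as did 5546 of all 10862 genes tested, and the median was 0.67 against 0.01. Summed over the list, Tet-TKO libraries were also higher in all other kept cells, at 6922 to 7172 CPM against 5199 and 4455 CPM. An unadjusted p below 0.05 was found for 18, 15 of them higher and 3 lower, against 9.75% of all genes tested. An edgeR adjusted p below 0.05 was found for 4, against 71 of all genes tested (0.654%), and 1 was called, against 0.350% of all genes tested. The gene of the list that was called was Zdbf2, a paternally expressed zinc finger gene, at 79.0, 93.0, 117 and 132 CPM in Tet-TKO cells and 34.9 and 35.6 CPM in WT host cells (log2 fold change 1.55, SE 0.203, edgeR adjusted p = 0.00704). The lowest Tet-TKO library was above both WT host libraries, and the call was kept in 14 of 19 alternative settings. It was lost without Tet-TKO library 2 or 3 (edgeR adjusted p = 0.0121 and 0.0132) and without WT host library 1 or 2 (edgeR adjusted p = 0.233 and 0.158), with log2 fold changes of 1.53 to 1.58. The same gene was at 81.7 to 140 CPM in all other Tet-TKO cells and at 25.5 and 29.3 CPM in all other WT host cells.

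H13, which is not in the list but is itself known as an imprinted gene expressed mainly from the maternal copy, was called in the other direction, at 17.0, 17.7, 24.6 and 19.4 CPM in Tet-TKO cells and 51.2 and 56.6 CPM in WT host cells (log2 fold change -1.47, edgeR adjusted p = 0.00523). It was chosen after its values were seen. In all other kept cells H13 was at 21.8 to 24.3 CPM against 59.2 and 51.6 CPM.

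The 3 further genes of the list with an edgeR adjusted p below 0.05, chosen after their values were seen, are also expressed from the paternal copy. Plagl1, a zinc finger growth regulator, was at 41.8, 69.0, 69.5 and 65.2 CPM in Tet-TKO cells and 8.84 and 20.1 CPM in WT host cells (log2 fold change 2.13, SE 0.330, edgeR adjusted p = 0.0187). Snrpn, which encodes a splicing protein, was at 176, 163, 202 and 226 CPM against 80.0 and 107 CPM (1.02, SE 0.165, edgeR adjusted p = 0.0214). Nnat was at 249, 241, 223 and 230 CPM against 132 and 134 CPM (0.81, SE 0.148, edgeR adjusted p = 0.0455). None of these overlapped between the genotypes, DESeq2 called Plagl1 and Snrpn, and edgeR called Plagl1 when Tet-TKO library 1 was left out.

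The most abundant imprinted genes differed less. Gnas, the stimulatory G protein subunit, was at 901, 863, 997 and 1032 CPM against 875 and 892 CPM (0.08), Mest at 635 to 917 CPM against 576 and 744 CPM (0.21), and Peg3 at 652, 601, 1244 and 1145 CPM against 525 and 585 CPM (0.67, edgeR adjusted p = 0.437). Gnas and Mest overlapped between the genotypes, and Peg3 did not. On the lower side Grb10, a growth-limiting adaptor, was at 178, 153, 146 and 140 CPM against 240 and 242 CPM (-0.66, edgeR adjusted p = 0.154), and the noncoding RNA Airn was at 6.28 to 9.34 CPM against 13.5 and 17.8 CPM (-0.92, edgeR adjusted p = 0.237). With Tet-TKO libraries 1 and 2 alone against the WT host, 23 of 29 genes tested were higher and the median was 0.41, and with size factors of DESeq2 in place of TMM 25 of 32 were higher.

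**Figure D5:**
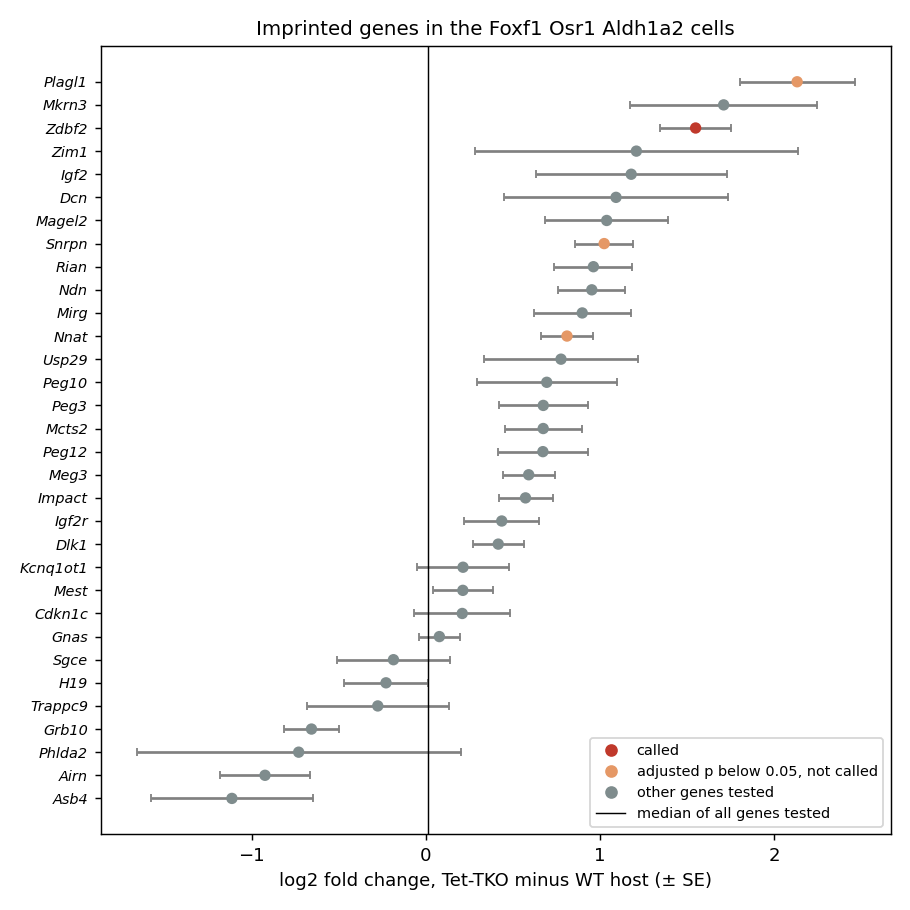
Points give the log2 fold change, Tet-TKO minus WT host, of the 32 imprinted genes tested in the cells of the rule, with bars of 1 standard error from edgeR, and the vertical line is the median of all genes tested. Of the 32 genes 25 lie above 0, Zdbf2 (1.55) is the called gene among them, and Plagl1, Snrpn and Nnat have an adjusted p below 0.05.

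Since TET enzymes act on methylated cytosines in CG pairs, promoters are shown for Zdbf2 (both annotated starts), for Lix1, which also rose and has few CG, and for H13, the imprinted gene that fell and that hosts another, Mcts2 (64.2 and 49.6 CPM in WT host and 77.9 to 105 CPM in Tet-TKO cells). Each runs 5′ to 3′ from 250 bases before to 50 bases after the start, from RefSeq on GRCm38.p6, all on the plus strand, and capitals mark CG, which reads the same on both strands and cannot overlap itself. The windows are chr1:63200108-63200407 and chr1:63273019-63273318 for Zdbf2, chr17:17402436-17402735 for Lix1 and chr2:152669211-152669510 for H13. CG was counted 15 and 38 times at the Zdbf2 starts, 3 times at Lix1 and 21 times at H13. Of all 32851 promoters of this length 94.6% held at least 1 CG, the median was 7, and at least as many were found in 34.6%, 4.95%, 76.7% and 24.8% of them in that order. Promoters were matched for 22 of the 38 called genes, and these data hold no measure of methylation at them.
Zdbf2, upstream start: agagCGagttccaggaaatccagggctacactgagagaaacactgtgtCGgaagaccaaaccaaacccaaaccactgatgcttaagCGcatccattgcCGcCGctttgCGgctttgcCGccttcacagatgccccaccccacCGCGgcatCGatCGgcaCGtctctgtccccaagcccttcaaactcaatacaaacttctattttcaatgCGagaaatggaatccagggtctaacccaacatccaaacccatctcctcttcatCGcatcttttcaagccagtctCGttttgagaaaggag
Zdbf2, downstream start: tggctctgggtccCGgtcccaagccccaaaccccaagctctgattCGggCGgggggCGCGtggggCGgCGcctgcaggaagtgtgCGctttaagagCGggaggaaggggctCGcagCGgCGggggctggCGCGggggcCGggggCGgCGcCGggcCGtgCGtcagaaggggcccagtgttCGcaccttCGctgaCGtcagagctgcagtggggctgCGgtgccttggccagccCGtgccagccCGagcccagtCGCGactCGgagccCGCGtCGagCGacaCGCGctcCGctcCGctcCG
Lix1: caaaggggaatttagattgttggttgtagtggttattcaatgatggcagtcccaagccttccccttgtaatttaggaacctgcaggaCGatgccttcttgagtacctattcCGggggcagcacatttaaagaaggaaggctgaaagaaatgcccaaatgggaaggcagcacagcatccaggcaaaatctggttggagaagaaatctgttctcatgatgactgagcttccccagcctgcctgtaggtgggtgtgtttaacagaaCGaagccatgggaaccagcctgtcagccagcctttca
H13: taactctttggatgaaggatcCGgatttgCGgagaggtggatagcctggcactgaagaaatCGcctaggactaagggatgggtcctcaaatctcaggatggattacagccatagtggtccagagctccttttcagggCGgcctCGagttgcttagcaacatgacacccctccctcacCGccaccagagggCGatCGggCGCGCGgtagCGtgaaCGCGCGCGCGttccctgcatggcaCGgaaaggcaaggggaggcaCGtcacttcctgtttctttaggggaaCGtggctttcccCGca

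Lists of other cell types differed in where they stood against the other kept cells. The somite list summed to 84.0 to 155 CPM per library against 39.3 to 96.3 CPM elsewhere, and the intermediate mesoderm list, which holds Lhx1, to 94.0 to 136 CPM against 31.7 to 61.3 CPM, both higher in all 6 libraries. The somatic lateral plate and limb field list was also higher in all 6, at 446 to 585 CPM against 298 to 507 CPM. The lateral plate and splanchnic mesoderm list, without the rule genes, summed to 1705 to 2196 CPM against 805 to 1316 CPM. The posterior second heart field list was higher in all 6 libraries as well. These sums thus do not tell the splanchnic layer from the somatic layer or from the posterior second heart field. The allantois list summed to 106 to 151 CPM against 143 to 452 CPM, the extraembryonic mesenchyme list to 315 to 607 CPM against 495 to 1183 CPM and the cardiomyocyte list to 107 to 410 CPM against 279 to 1270 CPM, all lower in each of the 6 libraries. The rule set aside cells with Tbx4, so the low allantois sum is in part built in by the selection. The extraembryonic mesenchyme list shares Spin2c with the allantois list. The yolk sac endoderm list summed to 104, 60.5, 61.3 and 52.1 CPM in Tet-TKO cells and to 208 and 111 CPM in WT host cells, against 87.3 to 223 CPM and 3920 and 1169 CPM in all other kept cells. Of its 6 genes tested edgeR called 0, 5 had an unadjusted p below 0.05, all lower, the median log2 fold change was -2.44 (-1.45 without WT host library 1), and DESeq2 called Ttr and Apoa1. Ttr was at 1.04 to 2.58 CPM against 22.8 and 7.75 CPM, Apoe at 37.9 to 93.0 CPM against 150 and 79.0 CPM, and Rbp4 at 0.571 to 4.09 CPM against 11.2 and 8.52 CPM. Hba-x, Hbb-bh1 and Hbb-y, the embryonic haemoglobins that head the blood list, had log2 fold changes of -6.00, -3.86 and -5.72. The part of blood and yolk sac RNA in the differences of other genes was not tested.

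The cardiomyocyte list summed to 247, 107, 337 and 208 CPM against 402 and 410 CPM, edgeR called 0 of 8, 2 had an unadjusted p below 0.05, both lower, and the median log2 fold change was -0.48. Without Tet-TKO library 3 edgeR called 1 of 7, Myl7, all 7 were lower and the median was -0.73, and without WT host library 1 it was -0.17. Myl7, the atrial myosin light chain, was at 55.3, 38.2, 78.7 and 36.0 CPM in Tet-TKO cells and at 138 and 169 CPM in WT host cells (-1.56, SE 0.271, edgeR adjusted p = 0.0335), which DESeq2 called, while Tnnt2 (-0.55) and Myl4 (-0.37) overlapped between genotypes. For endothelium 0 of 3 were called by either tool, 1 had an unadjusted p below 0.05 (Etv2, lower) and the median was -0.55, with Egfl7 and Kdr at -0.41 and -0.55 and Cdh5 and Pecam1 at no more than 2.79 CPM. The somite list had 0 of 5 called by either tool, 2 with an unadjusted p below 0.05 (Tcf15 higher at 0.71, Meox1 lower at -0.97) and a median of 0.07, with Foxc2 at 0.07. The endothelium median was -0.97 without WT host library 1 and -0.32 without Tet-TKO library 3, and the somite median ran from -0.19 (without WT host library 2) to 0.23 (without Tet-TKO library 3).

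For intermediate mesoderm 0 of 4 genes were called by either tool, 1 had an unadjusted p below 0.05 (Sall1, 0.62) and the median was 0.48, with Lhx1 at 75.6 to 99.8 CPM against 70.7 and 70.5 CPM (0.34) and Wt1 at 0.11, while Pax2 and Pax8 stayed at or below 3.26 CPM. The median was 0.23 without Tet-TKO library 2. Allantois and extraembryonic mesenchyme genes had 0 calls by either tool and 0 unadjusted p below 0.05 among 4 and 8 genes, with medians of -0.13 and -0.33. Both medians turned with the library left out, the allantois one to 0.10, 0.02 and 0.18 without Tet-TKO library 3 or 4 or WT host library 2, and the extraembryonic mesenchyme one to 0.27 without WT host library 1, against -0.57 without Tet-TKO library 1. Among them Spin2c (-0.15), Wnt5a (-0.00), Pitx1 (-0.10), Msx1 (-0.58) and Pmp22 (0.24) were the most abundant. The gut endoderm list had 0 of 3 called by either tool, 1 unadjusted p below 0.05 (Krt18, 0.32) and a median of 0.32, with Krt8 at 0.34 and Spint2 at -0.30, while Foxa2 and Sox17 did not exceed 3.54 CPM. For the neural list 0 of 3 were called by either tool, 1 had an unadjusted p below 0.05 (Fabp7, -1.61) and the median was -0.21, with Sox2 at -0.21 and Pax6 at 1.06. With a library left out the neural median ran from -1.21 (Tet-TKO 3) to 5.48 (WT host 1). Neural crest genes had 0 of 2 called by either tool, 0 unadjusted p below 0.05 and a median of 0.77 (Ets1 1.08, Sox9 0.46), and Sox10 and Tfap2a were not above 3.87 CPM. The neural crest median was 0.44 without WT host library 1 and 1.17 without WT host library 2. Over all 26 lists, 314 of the 410 genes found besides those of the rule could be tested and 3 were called, in 2 lists.

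Whether a genotype difference was particular to these cells was tested as an interaction against a pair of other mesodermal populations. The first was 3417 cells with UMIs of Tbx4 and Foxf1 and none of Epcam, which share Foxf1 and include allantois. Of 12645 genes tested with edgeR, 7 (0.0554%) had a genotype difference that differed between the populations, and DESeq2 called 3 of them, Lrrfip1, Arpc1b and Cck. Cck, a peptide hormone gene, was at 7.32, 5.13, 9.55 and 4.15 CPM in the Tet-TKO and 2.79 and 5.42 CPM in the WT host cells of the rule, and at 0.6245, 0.391, 0.110 and 0 CPM and 10.7 and 8.61 CPM in the Tbx4 cells (log2 interaction 5.51, SE 0.589, edgeR adjusted p = 3.56e-05). The difference thus lay in the Tbx4 cells, where Tet-TKO libraries were near 0, while in the cells of the rule the genotypes overlapped.

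Rtn1, a reticulon of the endoplasmic reticulum, was at 7.07 to 14.4 CPM against 7.44 and 5.42 CPM in the cells of the rule and at 1.21 to 2.85 CPM against 5.02 and 6.46 CPM in the Tbx4 cells (2.38, edgeR adjusted p = 0.00725). Tmem100, an endothelial BMP target, was at 4.95 to 7.42 CPM against 6.98 and 9.30 CPM, and at 8.31 to 13.8 CPM against 3.1 and 2.77 CPM (-2.24, edgeR adjusted p = 0.00812). Ptges, a prostaglandin E synthase, was at 19.8 to 32.5 CPM against 16.3 and 16.3 CPM, and at 9.90 to 14.5 CPM against 20 and 20.1 CPM (1.48, edgeR adjusted p = 0.00725). In the cells of the rule Lrrfip1, an actin-associated repressor, was at 29.2 to 32.5 CPM against 46.5 and 62.8 CPM, and in the Tbx4 cells at 102 to 127 CPM against 85.9 and 96.2 CPM (-1.18, edgeR adjusted p = 0.000237). The log2 interactions of Arpc1b, an actin nucleation subunit, and Irx3 were -1.07 and -1.03. In 6 of these 7 genes, all but Cck, both populations were above 1 CPM in every library. The count of 7 was 0 with cells thinned to 5000 UMIs and between 1 and 24 with a library left out.

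The other population was 823 cells with Meox1 and Tcf15, markers of paraxial mesoderm. Of 10976 genes edgeR called 0 (0.00%), 679 had an unadjusted p below 0.05 and 9 an adjusted p below 0.05, and DESeq2 called 1, Rps3a3. Of the 38 genes called in the cells of the rule, edgeR called 0 in either interaction, and DESeq2 called Rps3a3 in that with the Meox1 cells. An unadjusted p below 0.05 was found for 2 of the 38 against the Tbx4 cells, where 8.10% of all genes tested had one, and for 14 of the 38 against the Meox1 cells, where 6.19% did. In those Meox1 cells the Tet-TKO libraries held more of some transcripts that mark the WT host, with Xist at 28.3, 23.2, 40.9 and 58.3 CPM and Rps3a1 at 411, 441, 591 and 1021 CPM, and the part of this in the interactions, that of Arg1 included, was not tested. In the Meox1 cells Arg1 was at 79.3, 105, 130 and 209 CPM in the Tet-TKO and 287 and 336 CPM in the WT host libraries, where the Tet-TKO libraries were again lower (log2 interaction -0.39, edgeR adjusted p = 0.72). In the Tbx4 cells it was at 0.913 to 3.72 CPM against 4.75 and 5.69 CPM. No gene was therefore shown to differ between genotypes in these cells more than in both neighbours, and a p above the threshold does not show that the differences are alike. All 3 populations came from the same 6 libraries, and no cell was counted in more than 1, since cells meeting the Meox1 Tcf15 rule as well were kept with the cells of the rule alone.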

How the data were processed

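The submitters deposited 10x Genomics 3′ single-cell libraries of sorted chimera cells as whole-number UMI counts per gene and barcode. Per the file headers and methods, the authors made these deposited counts with Cell Ranger (3.1.0 in the matrix headers, while the methods name a later version) on mm10 with a GRCm38 annotation and the tdTomato sequence, so reads of near-identical copies are uncertain. Gene positions and types were taken from a reference annotation of the same build. The cells, gene lists and tests were chosen with earlier results of these data known.

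Barcodes were kept from 1500 UMIs up, with limits of 30% for mitochondrial and 35% for ribosomal UMIs (names beginning Rps or Rpl). No doublet caller was applied in the reported values; Scrublet at 0.8% per 1000 barcodes served as an alternative. UMIs of the cells meeting the rule were summed per library, because cells are not replicates, and tested with edgeR 4.0.16 (R 4.3.3): filterByExpr, TMM, robust quasi-likelihood fit without a block, with Benjamini-Hochberg adjustment over all genes tested. A call needed an adjusted p below 0.01 and an absolute log2 fold change of at least 1, as in the study's methods. DESeq2 1.42.0 was an alternative. CPM scales a gene's UMIs to the total of the cells summed, and counts are 3′ tags, so levels were compared within a gene. Interactions used sums per library and population with the library as a term of the model. Shares were compared by exact permutation over 4 and 2 libraries. Single cells were read and thinned with Python 3.11.15, scanpy 1.11.5, numpy 2.4.6, scipy 1.17.1 and pandas 2.3.3, and figures drawn with matplotlib 3.10.9.

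Named genes were the 12 highest and 12 lowest called genes with every Tet-TKO library outside the WT host range, without tdTomato, Xist, Y-linked and rule genes; up to 6 called and the 3 most abundant genes of each of 26 lists; and up to 5 called interactions of largest size. On data simulated for the comparison of genotypes, with 200 of 10862 genes changed, edgeR recovered 99.5% at a log2 change of 1.5 and 100% at 2, and DESeq2 99% and 100%. The simulation gave every gene the same fixed dispersion and changed only genes above the median level. It checks that the tests run and does not measure their power on these libraries. Alternatives left out each library, blocked on library number, summed Tet-TKO libraries in pairs, and changed scaling, filter, tool, UMI minimum, doublets, depth, the tdTomato match and the threshold. The looser threshold reused the main fit and could lose no call, and it is counted among the settings that kept a call. A few genes that the rule names are not reported here.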

Additional observations from a re-analysis of the deposited data

Results flagged for a closer look

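Among 120 sets of 4 Tet-TKO values examined, 4 had 1 library far from the other 3, judged by the gap to the nearest value over the whole range, and chance alone gives about 1 in 20 such sets. The highest Hbb-bt value was 0.215 CPM, in library 1, with the other 3 at 0. Hbb-y reached 64.9 CPM in library 3, with the others at 0.431 to 4.56 CPM. Tcf15 reached 54.7 CPM in library 4, with the others at 27.2 to 31.0 CPM, and Top2a reached 343 CPM in library 3, with the others at 314 to 319 CPM.

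For 7 genes the genotype difference in the cells of the rule differed from that in the Tbx4 Foxf1 cells by the interaction test, with edgeR adjusted p from 3.56e-05 to 0.00812. The log2 interactions were 5.51 for Cck, 2.38 for Rtn1, 1.48 for Ptges, -1.03 for Irx3, -1.07 for Arpc1b, -1.18 for Lrrfip1 and -2.24 for Tmem100. Cck kept this call in 15 of 16 alternatives and Lrrfip1 in 14 of 17.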

How the results depend on the processing

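The count of 38 genes called in the cells of the rule was 151 without the filter on low counts (the median of all genes then shifted to 0.19), 70 with DESeq2, 71 at an adjusted p below 0.05 without a minimum fold change, 22 with cells thinned to 5000 UMIs, 15 with the rule on thinned counts (Tet-TKO library 4, with 8 cells, left out), and, chosen after seeing the data, 21 with protein-coding genes other than the haemoglobins, 96 with Tet-TKO libraries 1 and 2 and 501 with libraries 3 and 4. Leaving out each library gave 3 to 41, the lowest without WT host library 1 (3) and library 2 (7). Over the 45 genes named in the 2 sets of calls, 616 of 818 values kept the call, 202 lost it and 0 reversed, and Rps3a1 and Rps15a-ps8 were called in every alternative. The 616 include the looser threshold, which can lose no call.

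The 7 interactions with the Tbx4 cells became 3 with Tet-TKO libraries summed in pairs, 34 without the filter, 3 with DESeq2, 0 with thinned cells, 30 at an adjusted p below 0.05, and 2 and 76 with Tet-TKO libraries 1 and 2 or 3 and 4 alone. Leaving out each library gave 1 to 24 (Tet-TKO library 1 left out gave 24, library 3 gave 2 and library 4 gave 3, and WT host library 1 gave 2 and library 2 gave 1). The 0 interactions with the Meox1 cells became 2, 20, 1, 4, 9, 5 and 24 under the same settings in that order, and 5 with cells whose tdTomato matched the sorted fraction, and 0 to 4 with a library left out.

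The share with all UMIs had differences in mean log2 share of 1.26 to 2.12 with a library left out, and the thinned share 0.18 to 0.75. The thinned share reversed to -0.0731 with Tet-TKO libraries 1 and 2 alone, and without cells rich in haemoglobin it was 0.17. The library numbers are not stated to pair samples, and with 2 pairs the deviations of Tet-TKO and WT host libraries of the same number correlated at 0.10. The replicate block, over libraries 1 and 2, gave 151 calls, 53 higher and 98 lower, which held 37 of the 38, a share difference of 0.75 and a thinned one of -0.0731. Depth limits the rule: at 5000 UMIs the shares rest on 8 to 29 cells. The cause of these shifts was not tested beyond the fewer libraries, cells or genes that each setting leaves.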
